A study of Homo sapiens with 4 samples.

Results

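Binding of CEBPB was examined around the genes of the Tribbles pseudokinases TRIB1, TRIB2 and TRIB3 in NCM460, an established human cell line derived from colon epithelium. The series held 2 ChIP samples made with an antibody to CEBPB and 2 input samples of sonicated chromatin without antibody. All samples were of this line, grown in serum-containing medium, and the labels name no treatment, genotype or time course. The replicates are described as independent experiments, and since no RNA was measured, the identity of the cells could not be checked against marker genes. The 3 genes were selected on their proximity to binding sites: the 300 kb on either side of each start site were searched for summits of both peak lists and for reproducible regions, which are the intervals listed by the authors in a deposited table of irreproducible discovery rates (IDR), all at 0.05 or below. Start sites on the hg19 build were placed to the nearest 1 kb, at 126.443 Mb of chromosome 8 (band 8q24.13) for TRIB1, 12.857 Mb of chromosome 2 (2p24.3) for TRIB2 and 0.361 Mb of chromosome 20 (20p13) for TRIB3. All distances below carry that rounding. Together the 3 windows held 47 of the 25602 reproducible regions on chromosomes 1 to 22 and X, with 107 of 80530 summits in replicate 1 and 110 of 104307 in replicate 2.

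Tribbles proteins have the fold of a protein kinase but little or no catalytic activity, and act as scaffolds. TRIB1 and TRIB2 bring the ubiquitin ligase COP1 to C/EBP transcription factors, best known for C/EBP alpha, and thereby mark them for degradation. TRIB3 is known as a stress gene switched on by ATF4 and CHOP (DDIT3), basic leucine zipper factors of which the latter belongs to the C/EBP family, and its protein binds the kinase AKT. CEBPB itself is a basic leucine zipper factor of epithelial, myeloid and liver cells whose dimers read a palindromic DNA element.

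The promoters of TRIB2 and TRIB3 are shown because, of the 3 genes, only these had a promoter sequence available. As given further on, a reproducible region lay at the start of TRIB3, while the nearest to TRIB2 was 260 kb away. RefSeq promoter sequences on GRCh38.p14 matched 2 of the 3 genes. Each run gives the 250 bases before the annotated start, 5′ to 3′ on the plus strand, at chr2:12716686-12716935 for TRIB2 and chr20:381045-381294 for TRIB3. Capitals mark the C/EBP half-site GCAAT or its reverse complement ATTGC.
TRIB2: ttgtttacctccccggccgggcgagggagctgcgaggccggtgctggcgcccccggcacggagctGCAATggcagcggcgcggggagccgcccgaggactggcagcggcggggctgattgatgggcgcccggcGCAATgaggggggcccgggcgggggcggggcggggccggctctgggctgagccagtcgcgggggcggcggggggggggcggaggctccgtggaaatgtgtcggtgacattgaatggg
TRIB3: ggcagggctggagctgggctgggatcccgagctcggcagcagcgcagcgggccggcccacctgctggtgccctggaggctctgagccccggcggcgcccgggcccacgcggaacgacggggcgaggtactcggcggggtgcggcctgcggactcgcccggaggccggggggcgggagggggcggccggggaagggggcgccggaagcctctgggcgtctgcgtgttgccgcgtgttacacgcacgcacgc

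Both promoters were rich in G and C, at 76.8% for TRIB2 and 78.8% for TRIB3, against a median of 58.0% over 27305 genes. The full C/EBP element TTGCNNAA, the C/EBP-ATF composite element TGATGNAA and the cyclic AMP response element TGACGTCA had no match on either strand in these windows, nor in the windows of the other annotated starts of TRIB3, of which there are 3 in all. Over all genes, 11%, 3.89% and 2.03% of promoters held them. The half-site, searched after the full elements had no match, occurred 2 times before TRIB2, beginning 185 and 117 bases before the start, and not before TRIB3. It was present in 25.1% of all promoters. The letters are of another build than the peaks, so no summit could be placed on them. The same search covered a list of 15 related genes, namely the related pseudokinase gene STK40, the ligase genes COP1 and DET1, the C/EBP genes CEBPA, CEBPB, CEBPD and CEBPG, ATF4, DDIT3, the kinase genes AKT1, AKT2, MAP2K1, MAP2K4 and MAP2K7, and ACACA, encoding a fatty acid synthesis enzyme. Of the 14 with a promoter sequence, 0 held TTGCNNAA, 0 held TGACGTCA, and 1, CEBPG, held TGATGNAA. The half-site was present in 4, AKT2, MAP2K1, MAP2K4 and DET1. No peak was assigned to the genes of this list, since their hg19 positions were not used here.

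Binding around TRIB1 was dense. The 600 kb window held 37 reproducible regions, or 61.7 per Mb (95% exact Poisson interval 43.4 to 85.0, counting error only), against 8.43 per Mb over the chromosomes. Of these, 15 lay upstream of the start and 22 downstream, and of the 36 gaps between neighbouring midpoints 10 were shorter than 2 kb. The window of TRIB3 held 9 regions (15 per Mb, interval 6.86 to 28.5), 5 upstream and 4 downstream. That of TRIB2 held 1 region (1.67 per Mb, interval 0.0422 to 9.29). Since the genes were picked with these sites known, the counts are a description, and the intervals leave out the uneven spread of regions along the chromosomes.

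**Figure D1:**
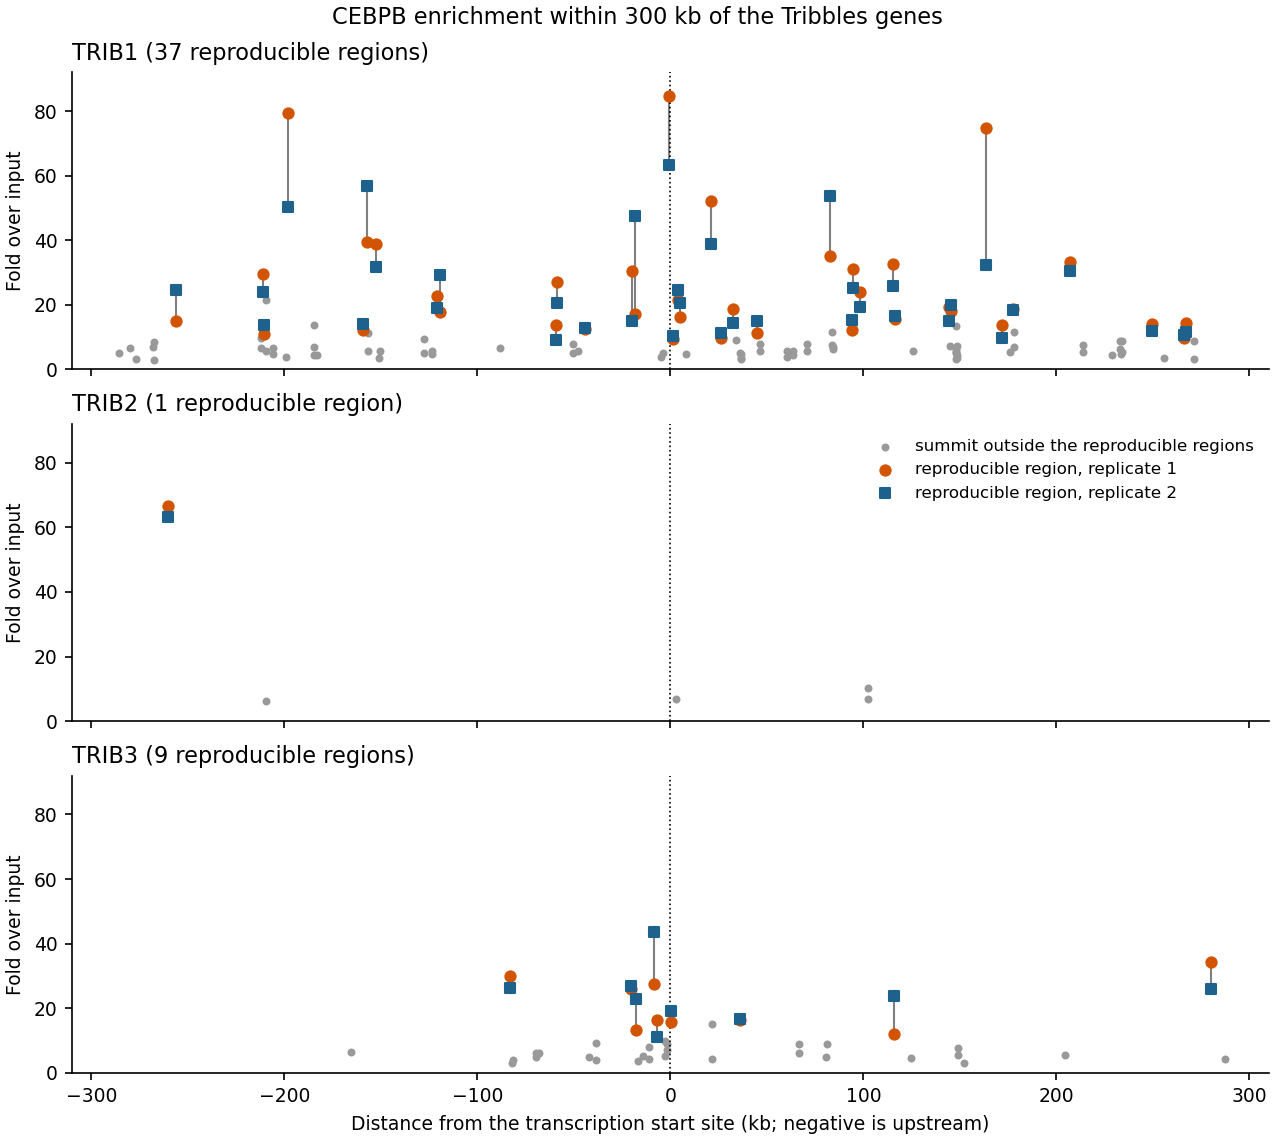
Fold over input (vertical axis) against distance from the transcription start site in kb (horizontal axis) in the windows of TRIB1, TRIB2 and TRIB3. Orange circles and blue squares are replicates 1 and 2 at the same reproducible region, joined by a line, and grey dots are summits outside such regions. TRIB1 has 37 regions spread over the window, TRIB2 has 1 at its upstream edge and TRIB3 has 7 of its 9 within 100 kb.

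To place these counts, chromosomes 1 to 22 and X were divided into 5050 tiles of 600 kb. The median tile held 4 reproducible regions (quartiles 1 and 8), and 20.8% of the tiles held none. The fullest tile held 31, so that no tile reached the 37 regions of TRIB1. At least 9 regions, the number at TRIB3, were found in 22% of the tiles, and at most 1, the number at TRIB2, in 30.5%. Tiles have fixed edges whereas the windows are centred on genes, so windows were also centred on each of the 25602 regions. Of these, 9 held at least 37 regions within 300 kb, and all 9 centres lay in the TRIB1 window. The median count was 9, the number at TRIB3. The highest count centred elsewhere was 36, in band 20q13.13, which carries the CEBPB gene.

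**Figure D2:**
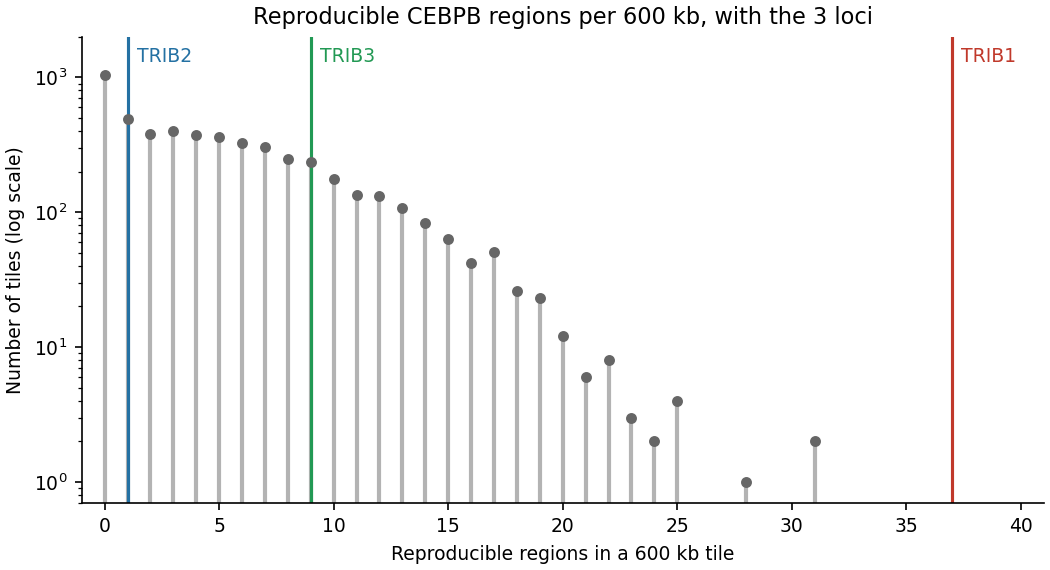
Number of 600 kb tiles (vertical log axis) that hold each number of reproducible regions (horizontal axis), with coloured lines at the counts of the 3 windows. The line of TRIB1, at 37, lies beyond the fullest tile, at 31, while those of TRIB3 (9) and TRIB2 (1) lie among the tiles.

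TRIB1 had the most regions and TRIB2 the fewest at each of the distances given here, while the standing of TRIB1 among region-centred windows depended on the distance. Within 10 kb of the start, TRIB1 had 4 regions, TRIB3 had 3 and TRIB2 had 0, against a median of 1 for windows centred on regions. Of the 25602 region-centred windows, 517 held at least 4 and 2401 at least 3. Within 100 kb the counts were 17, 7 and 0, against a median of 4 for windows centred on regions. At least 17 were held by 25 region-centred windows, 12 of them centred more than 100 kb from the TRIB1 start. Within 200 kb TRIB1 had 30 regions, which 7 region-centred windows reached, all 7 centred within 200 kb of its start. The highest count centred elsewhere was 25. Between 300 and 500 kb TRIB1 gained a single region, from 37 to 38. At 500 kb 89 region-centred windows held at least 38, up to 51, and 53 of them were centred more than 500 kb from its start. TRIB3 rose from 9 to 10 and TRIB2 kept its count of 1. For TRIB1, 17 regions lay within 100 kb, 13 between 100 and 200 kb and 7 between 200 and 300 kb, with median folds (mean of both replicates) of 21.6, 20.9 and 13.1. For TRIB3 the counts in these rings were 7, 1 and 1.

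**Figure D3:**
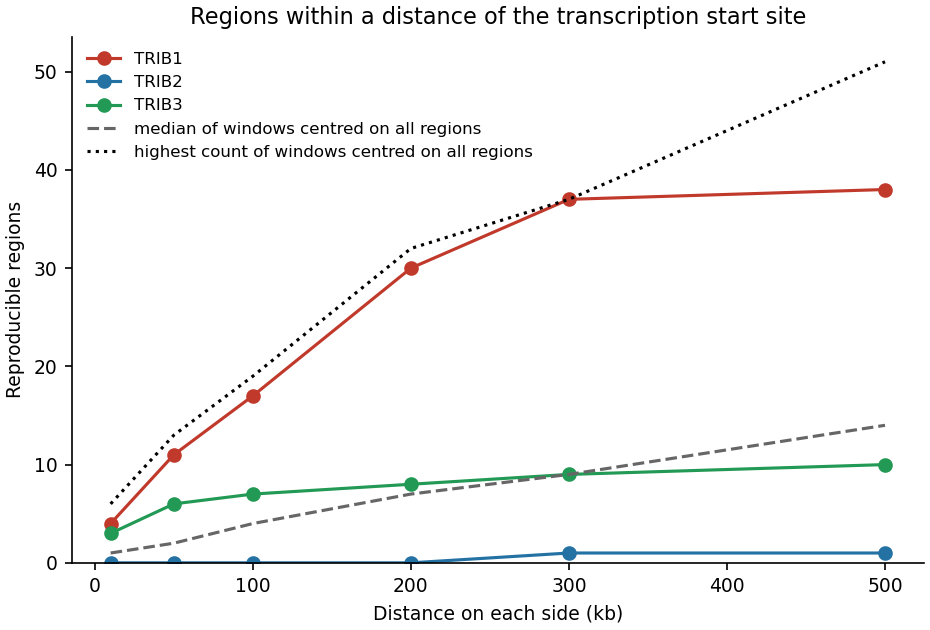
Reproducible regions (vertical axis) within a distance on each side of the start site in kb (horizontal axis) for TRIB1, TRIB2 and TRIB3. The dashed line is the median, and the dotted line the highest count, of windows centred on each of the 25602 regions, those around TRIB1 included. TRIB1 meets the highest count at 300 kb with 37 regions and lies below it at 500 kb, with 38 against 51.

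At the start of TRIB1 lay the second strongest reproducible region of the genome by mean fold, on chromosome 8 at 126442303 to 126442711, 0.49 kb before the rounded start. The fold is the authors', taken at the summit over the input background. It was 84.7 in replicate 1 and 63.3 in replicate 2, or 74.0 ± 15.1 (SD, n = 2). The summits of both replicates fell on the same base, 126442479. Their height was 233 extended reads (fragments) in replicate 1 against 241 in replicate 2. The input background, the level expected there on the peak caller's scaled pileup, was 1.56 and 2.06. Fragments, counted before scaling, were nearly equal between the replicates, while fold was lower in replicate 2. In replicate 2 the background was higher, and the scale by which each fragment enters the fold was lower. The part of each in the lower fold was not tested.

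Within the next 10 kb downstream TRIB1 had 3 weaker regions. The region at 126444316 to 126444861, 1.59 kb downstream, was the weakest of all 37 by mean fold, with 9.54 and 10.3 and 36 and 46 fragments. The regions at 126446763 to 126447249 and 126447764 to 126448287, 4.01 and 5.03 kb downstream, reached mean folds of 23 ± 2.11 and 18.4 ± 3.19 (SD, n = 2 each). The binding at the start site thus exceeded that of its near neighbours in both replicates, by fold and by fragments, the highest of which were 79 fragments in replicate 1 and 125 in replicate 2.

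Beyond 10 kb from the start lay 5 more of the 6 strongest regions in the TRIB1 window. In RefSeq order NSMCE2 precedes TRIB1 and LRATD2 follows it, and regions were placed by distance without being assigned to a gene. On the upstream side, the region at 126244806 to 126245513, 198 kb from the start, had folds of 79.3 and 50.2 and 214 and 228 fragments. The region at 126285367 to 126285998, 157 kb upstream, had folds of 39.5 and 56.8 and 159 and 215 fragments. On the downstream side, the region at 126463993 to 126464634, 21.3 kb from the start, had folds of 52.1 and 38.9 and 210 and 242 fragments. Those at 126525162 to 126525988 and 126606082 to 126606630, 82.6 and 163 kb downstream, had mean folds of 44.4 ± 13.3 and 53.5 ± 29.9 (SD, n = 2 each). All 6 ranked among the strongest 500 of 25602 reproducible regions by mean fold, and 3 among the strongest 100. At 4 of the 6, replicate 1 had the higher fold, and the largest gap was 74.6 against 32.3, at 163 kb downstream, where fragments were 215 and 201 and the background 1.68 and 4.0.

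Many of the other regions of TRIB1 were of middling strength. Over the 37, mean fold ran from 9.94 to 74.0 with a median of 19.8, against 15.8 over all reproducible regions, and 9 of the 37 lay in the strongest 10% of them and 25 above the median rank. Their widths ran from 298 to 1252 bp around a median of 520 bp, against 421 bp over all regions. The widest, at 126557730 to 126558981, joined 3 entries of the IDR table, and the 37 regions joined 43 entries in all. Median background was 2.00 in replicate 1 and 2.65 in replicate 2, against 2.17 and 2.68 at all reproducible regions. Median background at the TRIB1 regions was thus not above that of all regions in either replicate.

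Around TRIB2, binding came down to a single strong and isolated region. It lay 260 kb upstream, on chromosome 2 at 12596408 to 12597305, and ranked 8th among all reproducible regions. The replicates gave folds of 66.7 and 63.3 (65.0 ± 2.45, SD, n = 2), from 215 and 263 fragments over backgrounds of 2.00 and 2.34. The values of the 2 libraries were close. The replicate test gave an adjusted p of 0.641 (exact binomial test, described with the replicates). That result does not show agreement, since all regions had been kept for agreement of these same 2 replicates. The summits lay 7 bp apart, and the region spanned 898 bp. The midpoint of the nearest other reproducible region lay 369 kb away on the side away from TRIB2, and on the TRIB2 side none followed for 2678 kb. In the RefSeq gene order of GRCh38.p14, the protein-coding neighbours of TRIB2 are LPIN1, which encodes a phosphatidate phosphatase, and LRATD1. For the combined region the authors' deposited table gives a fold of 31.5, below the values in either replicate list.

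At TRIB2 itself the lists held only weak summits. Replicate 1 had a summit 3.05 kb downstream of the start with 14 fragments and a fold of 6.98, and no peak of replicate 2 overlapped it. In replicate 2 the nearest summit to the start lay 102 kb away. There the replicates had summits at 12959407 and 12959413, with 21 and 19 fragments and folds of 10.2 and 6.87, outside the reproducible regions. The remaining summit, of replicate 2 alone, lay 209 kb upstream with 17 fragments. In each list 2 of the 3 summits stood on the minimum background of that list, 1.00 in replicate 1 and 1.36 in replicate 2.

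TRIB3 showed moderate binding, with 7 of its 9 regions within 100 kb of the start. At least 7 within 100 kb were held by 4847 of the 25602 region-centred windows. A region on chromosome 20 at 361321 to 361680 lay 0.50 kb after the rounded start, with folds of 15.7 and 19.1 and 35 and 65 fragments, and summits 2 bp apart. Its mean fold of 17.4 ± 2.40 (SD, n = 2) was close to the median of the 9 regions, 18.0. Upstream, the strongest region of the window lay 8.36 kb from the start at 352415 to 352872. Its folds were 27.6 and 43.5 and its fragments 237 and 257, over backgrounds of 7.0 and 3.74. By fragments this region matched the one at the start of TRIB1, which had 233 and 241, although its mean fold was lower, at 35.6 against 74.0. A further region at 354116 to 354467, 6.71 kb upstream, had folds of 16.5 and 11, from 42 and 44 fragments.

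The other TRIB3 regions lay farther out. Those at 340350 to 340789 and 342978 to 343468, 20.4 and 17.8 kb upstream, had mean folds of 26.5 ± 0.75 and 18.0 ± 6.86 (SD, n = 2 each). The region at 277697 to 278160, 83.1 kb upstream, had folds of 30.1 and 26.3, and that at 396643 to 397126, 35.9 kb downstream, had 16.4 and 16.6. At 476731 to 477126, 116 kb downstream, the folds were 12.1 and 23.9 and the fragments 38 and 80. The last, at 641042 to 641503 and 280 kb downstream, was the strongest of the 9 in replicate 1 alone, with 34.4 against 25.9 in replicate 2. None of the 9 ranked among the strongest 500 regions, 1 lay in the strongest 10%, and 8 lay above the median rank. In RefSeq order NRSN2 precedes TRIB3 and RBCK1, encoding a subunit of the linear ubiquitin chain complex, follows it.

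Of the 8 shared peaks around TRIB3 that the IDR table did not list, 3 are described here, chosen after their values were seen: the pair nearest the start, and the tallest in replicate 2. Summits 1.55 and 1.56 kb upstream in replicates 1 and 2 had 30 and 47 fragments, and summits 2.62 and 2.61 kb upstream had 12 and 35. At 21.7 kb downstream, replicate 1 had 13 fragments with a fold of 4.35 and replicate 2 had 55 with a fold of 15. Fragments were more numerous in replicate 2 at these places, as they were at 8 of the 9 reproducible TRIB3 regions, and the median ratio of replicate 2 to replicate 1 over all reproducible regions was 1.29.

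Most peaks in the windows were seen in both replicates. In replicate 1, 59 of 68 peaks around TRIB1 overlapped a peak of replicate 2 by at least 1 bp (86.8%, 95% exact binomial interval 76.4 to 93.8%), against 82.0% over all peaks. In replicate 2, 59 of 70 overlapped (84.3%, interval 73.6 to 91.9%), against 62.8%. Of the 59 shared peaks in each replicate, 37 were in the IDR table, whose entries pair overlapping peaks, and the window was chosen with such sites known. Summits around TRIB1 were also stronger, with median folds of 9.35 and 10.5 in replicates 1 and 2, against 6.99 and 6.53 over all summits. The shares are thus a description and do not measure better agreement at TRIB1. Around TRIB3, 17 of 22 peaks of replicate 1 and 17 of 25 of replicate 2 overlapped (77.3 and 68.0%), and around TRIB2 2 of 3 in each. Peaks without a partner were weak: around TRIB1 none exceeded a fold of 6.65 and 21 fragments in replicate 1, or 9.18 and 26 fragments in replicate 2. In each replicate 22 shared peaks around TRIB1, 8 around TRIB3 and 1 around TRIB2 were not in the IDR table. Such peaks were common elsewhere too: over all chromosomes 61602 peaks of replicate 1 and 61465 of replicate 2 were shared, beside 25602 reproducible regions. The intervals cover counting error only.

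The replicates were then compared at the 47 regions by the number of fragments. All regions tested, in the windows and elsewhere, had already been kept for agreement of these same 2 replicates (IDR of at most 0.05). Agreement here is therefore in part set by that filter. Exact binomial tests were run at all 25602 regions, with the expected share taken from regions of similar height, and 748 (2.92%) passed an adjusted p of at most 0.05 by the Benjamini-Hochberg method. None of the 47 did: 0 of 37 at TRIB1, 0 of 1 at TRIB2 and 0 of 9 at TRIB3. With a single expected share over all regions, 926 of the 25602 regions passed. Of the 47, 2 were among them, both at TRIB1, 82.6 and 163 kb downstream (adjusted p = 0.0389 and 0.0390, exact binomial tests). At an unadjusted p of at most 0.05 there were 9 of 47, where 16.4% of all regions passed. The lowest adjusted p was 0.102, at 126708884 to 126709473 in the TRIB1 window, with 94 fragments in replicate 1 and 79 in replicate 2. The largest ratio of replicate 2 to replicate 1 at TRIB1 was 2.48, with 27 and 67 fragments at 126232238 to 126233033 (adjusted p = 0.148, exact binomial test). At TRIB3 it was 2.11, at the region 116 kb downstream (adjusted p = 0.217, exact binomial test). These exact tests compare the 2 libraries, and a difference that did not pass is not shown to be absent. On data simulated with counting noise only, 3-fold changes were found in 51.4% of changed regions with under 80 fragments in total. To these 4 of the 47 belong. With at least 200 fragments 100% were found. In that simulation 4.58% of unchanged regions had an unadjusted p of at most 0.05 (exact binomial tests), against 16.4% of all regions in the data. The real libraries thus varied more than the simulated ones, and the shares found hold for counting noise alone.

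**Figure D4:**
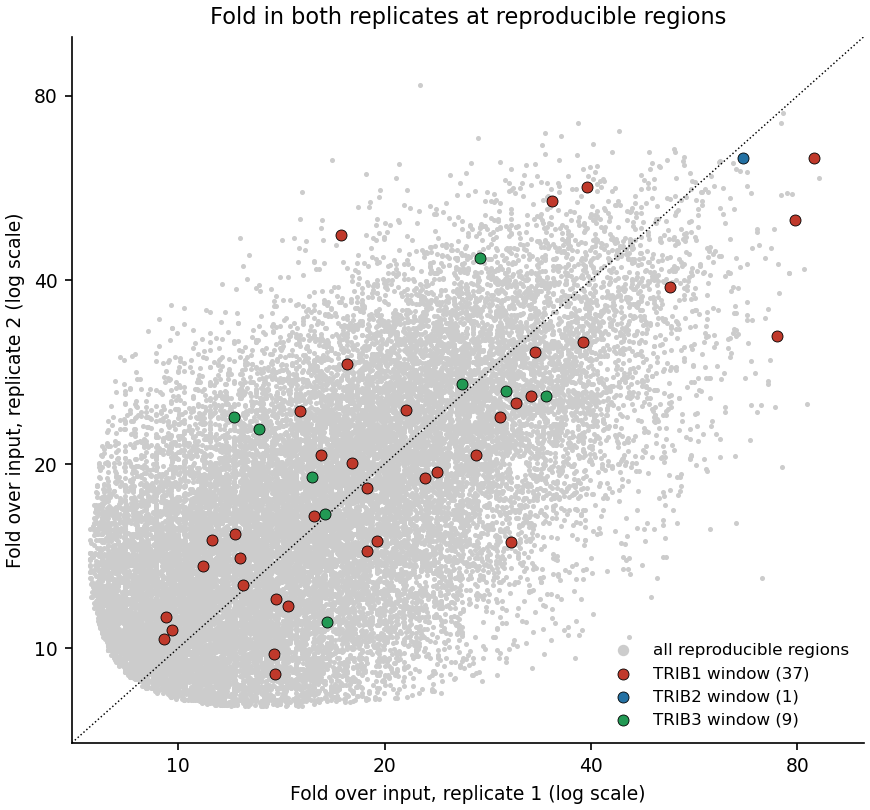
Fold over input of replicate 1 (horizontal log axis) and replicate 2 (vertical log axis) at all 25602 reproducible regions in grey and at those of the 3 windows in colour. The dotted line marks equal fold. The strongest TRIB1 region, at 84.7 and 63.3, and the TRIB2 region, at 66.7 and 63.3, lie at the upper end, and the 9 TRIB3 regions have mean folds between 13.8 and 35.6.

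Fold varied more between the replicates than fragments did. Over the 47 regions the log2 ratio of replicate 2 to replicate 1 had an SD of 0.52 for fold and 0.39 for fragments, and over all regions 0.56 and 0.40. The log2 ratio of the background plus 1 had an SD of 0.43 over the 47. In the TRIB1 window 3 regions differed at least 2-fold in fold (8.11%, against 7.53% of all regions), and they were chosen for mention after their values were seen. At 126424537 to 126425056, 18.2 kb upstream, folds were 17.3 and 47.4, fragments 167 and 236, and backgrounds 8.00 and 3.00. At 126422837 to 126423203, 20.0 kb upstream, folds were 30.6 and 14.9, fragments 98 and 92, and backgrounds 2.00 and 4.0. The third was the region 163 kb downstream. Fold is the scaled fragments over the background, each plus 1. Where it differs more than the scaled fragments do, the higher fold has the lower background by arithmetic, as in all 3. The part of the input in these differences was not tested.

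**Figure D5:**
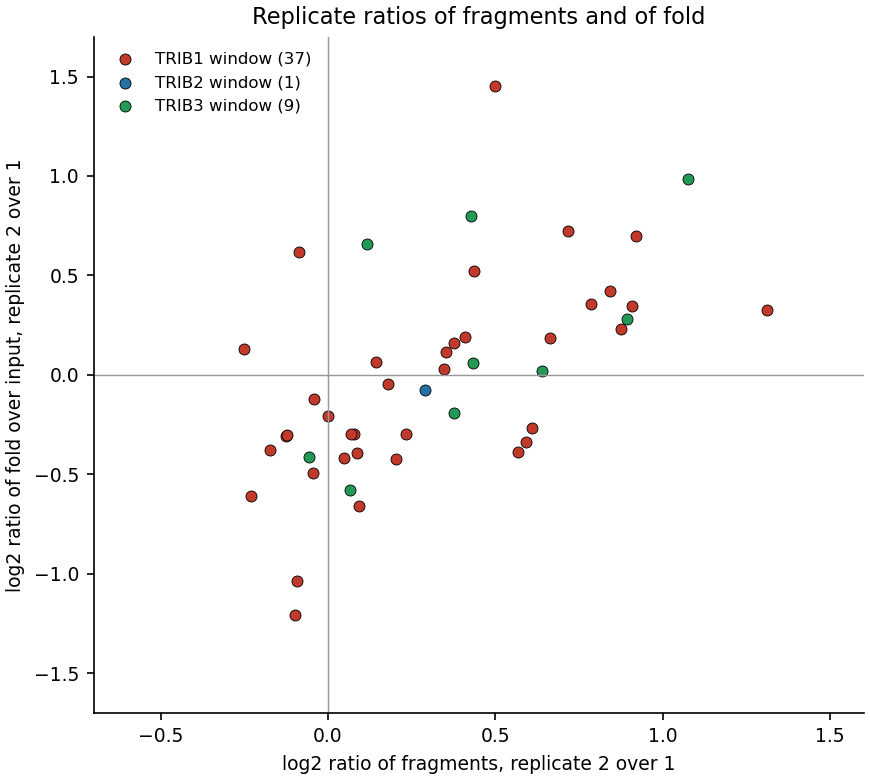
log2 ratio of replicate 2 to replicate 1 for fragments (horizontal axis) and for fold over input (vertical axis) at the 47 regions of the 3 windows. The vertical spread (SD 0.52) exceeds the horizontal (SD 0.39), and the 3 TRIB1 regions beyond 1 or -1 on the vertical axis lie within 1 of 0 on the horizontal.

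The regions on either side of the 300 kb limit were as follows. The outermost region inside the TRIB1 window lay 267 kb downstream with folds of 14.5 and 11.7, and the first outside lay 339 kb upstream with 22.3 and 21.4. For TRIB2 the region at 260 kb was the only one inside, with folds of 66.7 and 63.3, and the first outside lay 629 kb upstream with folds of 28.7 and 16.0. For TRIB3 the outermost inside lay 280 kb downstream with folds of 34.4 and 25.9, and the first outside lay 438 kb downstream with 16.4 and 14.7.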

How the data were processed

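Chromatin of 2 CEBPB ChIP samples and 2 inputs was sequenced. Per the submitters' processing notes the build was hg19, and the tools were MACS2 2.1.2, Bowtie2 2.3.4, bedtools 2.25.0, SAMtools 1.9 and FastQC 0.11.7, with no settings stated. Per the file headers, the authors called peaks for each ChIP sample against input. The deposited lists give for each summit a fold (a ratio over background), a −log10 p and a −log10 q, with a q-value of at most 0.05. The score that the peak caller wrote in the deposited lists was not used here. The authors' deposited IDR table holds −log10 IDR values and a fold of the combined region for 27544 entries, all of which matched summits of both lists. Another 2 columns of per-sample values were left out.

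Fragments and background were solved from fold and −log10 p with a fitted scale of 0.927 and 0.800 per read. A whole number of fragments met the deposited −log10 p within 0.005 at 100% of summits. Read totals are not in the lists, so fragments give the depth. IDR entries sharing an interval formed 1 region, represented by the summit pair of highest mean fold. Regions were placed by midpoint and summits by position. The replicate test was a two-sided exact binomial test, whose expected share was a running median over 1001 regions ordered by height. In data simulated for this test with counting noise only, 85.5% of 200 regions with 3-fold changes were called, beside 6 unchanged ones. Lengths and bands of hg19 chromosomes came from GenomeInfoDb 1.38.1 and circlize 0.4.16. Computations used SciPy 1.17.1 and NumPy 2.4.6, with pandas 2.3.3 and matplotlib 3.10.9, in Python 3.11.15.

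The named sites were the 6 strongest regions of each window, the nearest to the start, any within 10 kb of it, and the one with the largest replicate ratio. The remaining TRIB3 region, the TRIB1 regions of greatest width, lowest adjusted p and at least 2-fold difference in fold, and the summits outside reproducible regions were chosen after their values were seen. Genes, lists and tests were chosen with earlier results of these data known, so counts per window are descriptions.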

Additional observations from a re-analysis of the deposited data

How the results depend on the processing

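The region counts of the windows depended on the definition of a site. At an IDR of at most 0.01 they were 27, 1 and 8 for TRIB1, TRIB2 and TRIB3, and counting any overlap left 37, 1 and 9. Within 100 kb there were 17, 0 and 7. Summit pairs of the replicates within 100 bp, with q-values no higher than 0.01, numbered 68, 2 and 17. With 1 replicate left out, peaks of the other numbered 68 to 70 at TRIB1, 3 at TRIB2 and 22 to 25 at TRIB3. In all these settings TRIB1 had the highest count and TRIB2 the lowest. The strongest region by −log10 p was the same as by fold in each window, and leaving out a replicate gave highest folds of 63.3 to 84.7, 63.3 to 66.7 and 34.4 to 43.5. For TRIB3 the strongest region in replicate 1 alone was another, 280 kb downstream. The 748 regions that differed between the libraries numbered 368 when only the 15504 regions with an IDR up to 0.01 were tested, and 215 at an adjusted p of at most 0.01, with 0 in the windows each time. With a single expected share there were 926, of which 2 lay in the TRIB1 window, 82.6 and 163 kb downstream, and the cause was not tested. No paired analysis was possible because only the ChIP samples have peak lists, and the inputs are present solely as the background in them.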

Other observations

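Over all chromosomes, the shared peaks (61602 in replicate 1 and 61465 in replicate 2) outnumbered the 25602 reproducible regions. Around TRIB1, 22 of the 59 shared peaks in each replicate were not listed as reproducible. The tallest such summit in replicate 2 lay 209 kb upstream at 126233539, with 63 fragments and a fold of 21.4, and replicate 1 had 49 fragments and a fold of 5.8 at 126233535. The backgrounds were 1.40 in replicate 2 and 7.0 in replicate 1.

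In the authors' deposited table, the combined fold was below both replicate values at 8 of the 47 regions, 5 around TRIB1, 1 around TRIB2 and 2 around TRIB3, beside 16.2% of all 25602 regions. The strongest region of each window was among them, with combined folds of 55.0 for TRIB1, 31.5 for TRIB2 and 23.5 for TRIB3. A combined fold under 50% of the lower replicate value, as at TRIB2, was found in 1.06% of all regions.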
